A study of Mus musculus with 4 samples.

Results

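Interleukins are secreted proteins through which immune, epithelial and stromal cells signal to each other, and each acts on cells that carry its receptor chains. Most of the interleukins described here signal through receptors that activate JAK kinases and STAT factors, whereas the IL-17 family signals through the adaptor Act1 and NF-kB. In the gut, IL-15 and IL-7 sustain lymphocytes of the mucosa, IL-23 drives lymphocytes that make IL-17 and IL-22, and the epithelium carries receptors for IL-17, IL-22, IL-10 and IL-13. The set was every gene whose symbol is Il followed by a digit, leaving out Il1a, Il1b, Il1rn, Il1r1, Il1r2, Il1rl1, Il33, Il18, Il6, Il6st, Il6ra and Il11. It held 67 of the 22180 genes with a probe set of a single gene. The rule used names and no measured value. It still takes in 13 symbols of the IL-1 family, such as the decoy Il18bp and the IL-36 ligand Il1f6. Among the 13 is 1 antisense RNA, Il1bos. The common gamma chain Il2rg and the enzyme Il4i1 are not analysed here.

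The series measured total RNA from normal colon and colon tumours of C57BL/6 mice aged 3 months, with 1 array for each of 4 groups. The groups were normal colon and tumour labelled CDX2; Dmt1+/+/ApcF/+ (wild-type here) and normal colon and tumour labelled CDX2; Dmt1F/F/ApcF/+ (F/F here), so that every group carried the ApcF/+ allele and the CDX2 label. Alleles written F are usually flanked by loxP sites. What CDX2 stands for, which animals (7 wild-type and 4 F/F in the design text) gave which array, and whether their RNA was pooled, are not given in the sources used here. Loss of Apc activates Wnt signalling and starts colon tumours, and Dmt1 (symbol Slc11a2) imports iron.

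With 1 array a group, a difference between 2 arrays has no error, and its fold is given without a test. The 1 test is limma's fit of tissue and genotype over all 4 arrays, adjusted over 12060 genes. Colon epithelium markers were present on every array, with Epcam between 10.88 and 10.99 on the log2 scale of the deposited signals. Slc11a2 read -0.38 (normal colon) and -0.45 (tumour) on the F/F arrays relative to wild-type. The normal arrays differed in genes that mark position along the gut: Hoxd13, a homeobox gene of the distal gut, was at 6.86 in the wild-type and 3.02 in the F/F piece, against 8.58 and 8.35 in the wild-type and F/F tumours. The position of the piece therefore cannot be told apart from genotype in normal colon, or from tissue in either genotype. In these bulk samples fewer cells of a type and less RNA per cell cannot be told apart either.

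Of the 67 genes, 26 (38.8%) were kept because at least 1 array reached log2 4.67, the median over genes of their mean level, against 54.4% of all genes, and 41 stayed near background on all 4 arrays. Of the 26, 13 were at or above that level on all 4 arrays and 13 on 1 to 3 of them. Just above the level by their highest value were Il21r (4.74), Il34 (4.80), Il1f6 (4.83) and Il1rl2 (4.88), and just below it Il2rb (4.64), Il17rb (4.61), Il1bos (4.55) and Il9r (4.48). The kept genes were mostly receptors. In the common gamma chain, IL-10, IL-12 and IL-17 families 15 of 24 receptor genes were kept and 5 of 22 ligand genes.

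**Figure D1:**
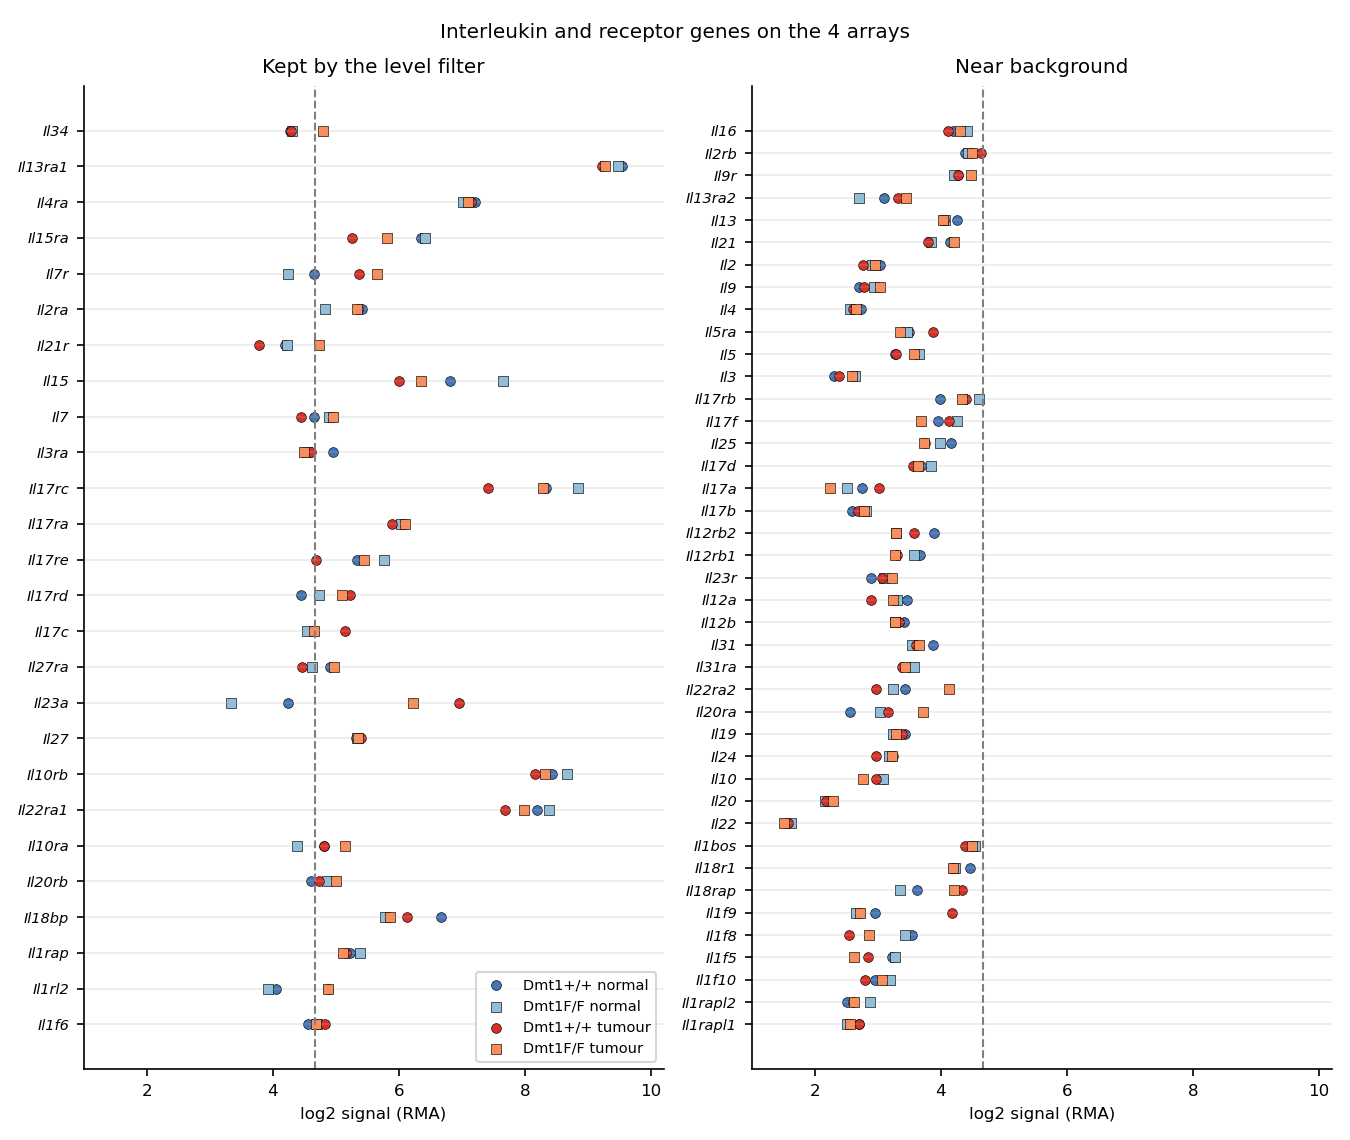
Log2 signal (x axis) of each of the 67 genes on the 4 arrays, 1 point per array, blue for normal colon and red or orange for tumour, circles for wild-type and squares for F/F. The dashed line is the median level of all genes, log2 4.67; the 26 genes on the left reach it on at least 1 array and the 41 on the right stay below it on every array.

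Near background were all 5 ligands of the IL-10 family with a probe set, Il10, Il19, Il20, Il22 and Il24, between log2 1.51 and 3.44. The helper T cell products Il2, Il4, Il9, Il13 and Il21 lay between 2.56 and 4.25, and Il3, Il5 and the IL-5 receptor Il5ra between 2.30 and 3.88. Of the IL-17 ligands, Il17a, Il17b, Il17d, Il17f and Il25 lay between 2.24 and 4.26. The IL-12 subunits Il12a and Il12b lay between 2.89 and 3.47 and the receptor chains Il12rb1, Il12rb2 and Il23r between 2.89 and 3.89. Il31 and Il31ra (3.38 to 3.87), Il16 (4.12 to 4.41), Il17rb (3.99 to 4.61), Il20ra and Il22ra2 (2.56 to 4.13) and Il2rb, Il9r and Il13ra2 (2.71 to 4.64) also stayed below the level. So did 9 symbols of the IL-1 family, Il18r1, Il18rap, Il1bos, Il1f5, Il1f8, Il1f9, Il1f10, Il1rapl1 and Il1rapl2 (2.52 to 4.55). The array gives no detection call, so these values do not show that the genes are silent. Among these 41, 2 differed by 2-fold or more between a pair of arrays, at sizes that are uncertain below the level. Il1f9, the IL-36 gamma ligand, was at 4.18 in wild-type tumour and between 2.66 and 2.96 on the other arrays. Il22ra2, a soluble decoy for IL-22, was at 4.13 in F/F tumour and between 2.97 and 3.44 elsewhere.

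Promoter windows of 250 bases before to 50 after the start, from RefSeq on GRCm38.p6, were held for 16 of the 26 kept genes. None was held for Il23a or Il15. They were searched on both strands for 3 motifs, the STAT motif TTCNNNGAA, the AP-1 motif TGANTCA and the TCF motif CTTTGAT of the Wnt pathway. Those of 2 called receptor genes with a match are shown, with the matched letters in capitals: Il7r (chr15:9529827-9530126, minus strand) and the second of 2 windows of Il15ra (chr2:11705462-11705761, plus strand).
Il7r: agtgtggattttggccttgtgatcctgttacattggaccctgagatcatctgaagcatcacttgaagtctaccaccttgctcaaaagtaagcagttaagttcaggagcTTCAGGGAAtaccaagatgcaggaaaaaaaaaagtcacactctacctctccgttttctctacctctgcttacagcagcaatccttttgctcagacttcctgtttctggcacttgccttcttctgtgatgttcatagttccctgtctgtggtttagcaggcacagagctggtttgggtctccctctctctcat
Il15ra: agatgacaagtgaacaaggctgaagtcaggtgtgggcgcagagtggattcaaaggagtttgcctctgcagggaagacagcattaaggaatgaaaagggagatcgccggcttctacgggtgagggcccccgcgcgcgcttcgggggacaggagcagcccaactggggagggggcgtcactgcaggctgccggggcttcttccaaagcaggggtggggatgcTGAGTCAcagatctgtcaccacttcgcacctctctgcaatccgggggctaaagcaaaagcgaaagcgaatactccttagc
The Il7r window holds 1 STAT motif from its base 109, and 8.30% of all 32851 windows hold that motif. The Il15ra window holds 1 AP-1 motif from its base 221, as 7.81% of all windows hold, and the first window of Il15ra and that of Il17rc hold none of the 3. Of the 17 windows of the kept genes, 1 (Il7r) held the STAT motif and 2 (Il15ra and Il22ra1) the AP-1 motif. The TCF motif was in none of the 17 and in 3.73% of all windows. A match is a string of letters and shows no binding.

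Tumour was compared with normal colon to ask which interleukin genes separate the tissues, and 5 of the 26 kept genes passed limma's test. Il23a and Il7r rose, and Il15, Il15ra and Il17rc fell. That is 7.69% rising, against 11.0% of all genes tested, and 11.5% falling, against 8.23%, shares near those of all genes. Over all genes 1331 rose and 992 fell, and after cyclic loess 1063 rose and 1229 fell. Of the 26, 6 (Il23a, Il7r, Il1rl2, Il17c, Il21r and Il34) were kept through tumour arrays alone, so that at least 1 tumour array had to be higher. Il3ra was kept through the wild-type normal array alone, so that wild-type tumour had to be lower. The counts and medians over kept genes are therefore descriptions. The median tumour difference of the 26 in the fit was -0.02, against 0.07 over all genes. The other 21 genes had fitted differences between -0.49 and 0.89 and did not pass.

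Il23a, the p19 subunit that pairs with the p40 subunit Il12b to form IL-23, was at log2 4.25 (wild-type) and 3.34 (F/F) in normal colon, and at 6.95 (wild-type) and 6.22 (F/F) in tumour. Both tumour arrays were high and both normal arrays lay below the background level. The tumour array was 6.49-fold higher in wild-type and 7.36-fold higher in F/F mice. Both folds start from values below the background level, so their sizes are uncertain. The fitted rise of Il23a was 2.79 (SE 0.16, limma adjusted p = 0.00522), and it passed under every alternative, with adjusted p between 0.000138 and 0.011. Il23a was kept through tumour arrays alone, so that at least 1 tumour array had to be higher. With no filter on level its limma adjusted p was 0.00299. Its partner Il12b stayed between 3.27 and 3.42, and its receptor chain Il23r between 2.89 and 3.22. The other chain, Il12rb1, lay between 3.28 and 3.67, so that p19 was the only part of the IL-23 ligand and receptor set measured above background. Il12a, the p35 partner of p40 in IL-12, was between 2.89 and 3.47, and Il27, which pairs with Ebi3 (2.65 to 3.17), was flat at 5.32 to 5.40. Macrophages can make p19. Of 11 macrophage and monocyte markers, all kept, 5 rose, where 11.0% of all genes rose, with Cd68 at 1.04 (SE 0.13, limma adjusted p = 0.0182). Their mean log2 level was 6.05 (wild-type) and 5.63 (F/F) in normal colon and 6.67 and 6.49 in the tumours. The part of these cells in the Il23a difference was not tested.

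Il7r, the IL-7 receptor alpha chain of T cells and innate lymphoid cells, read 4.66 (wild-type) and 4.25 (F/F) in normal colon, and 5.37 and 5.66 in the tumours. Both tumour arrays were above both normal arrays, 1.63-fold in wild-type and 2.66-fold in F/F mice. Il7r rose with a fitted difference of 1.06 (SE 0.24, limma adjusted p = 0.0486). It was kept through tumour arrays alone, so that at least 1 tumour array had to be higher. With no filter on level its limma adjusted p was 0.0494. The call lies at the threshold: adjusted p was 0.0571 after quantile normalization, 0.0563 after cyclic loess and 0.0552 without the variance trend, in a range from 0.0193 to 0.0571 over its 6 alternatives. Its ligand Il7 was between 4.45 and 4.95 and did not pass. Of the 10 kept T and NK cell markers none rose and 4 fell, Cd3g, Cd8a, Gzma and Klrd1, where 11.0% of all genes rose and 8.23% fell. Cd8a, Gzma and Klrd1 were kept through the normal arrays alone, so that they had to be lower in tumour. The 10 differed by a median of -0.64 in wild-type and -0.88 in F/F mice. In wild-type tumour all 10 were lower, and in F/F tumour 8 were lower and 2 higher. The 2 were Cd4 and Cd5, which differed by 1.24 and 0.23 in F/F mice and -0.05 and -0.27 in wild-type mice. The kept B cell markers differed by a median of 2.56 in F/F and -0.41 in wild-type mice. Cd4 and the B cell markers Cr2 and Pax5 were kept through the F/F tumour array alone, so that they had to be higher there. The part of these cells in the Il7r difference was not tested.

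Il15, a cytokine that sustains NK cells and CD8 T cells of the gut lining, read 6.81 (wild-type) and 7.66 (F/F) in normal colon, and 6.00 and 6.35 in the tumours. Both tumour arrays were below both normal arrays, and F/F normal colon was the highest. Il15 fell, with a fitted difference of -1.06 (SE 0.17, limma adjusted p = 0.026), and the tumour array was lower 1.76-fold in wild-type and 2.49-fold in F/F mice. Against wild-type normal colon as the baseline, a comparison added after the data were seen because of the position genes, F/F tumour was no longer 2-fold lower.

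Il15ra, the chain that presents IL-15 to neighbouring cells, read 6.35 (wild-type) and 6.42 (F/F) in normal colon, and 5.26 and 5.81 in the tumours. Both tumour arrays were below both normal arrays, 2.13-fold in wild-type and 1.53-fold in F/F mice. The fitted fall was -0.85 (SE 0.17, limma adjusted p = 0.0399). Without the variance trend its adjusted p was 0.0544, in a range from 0.0102 to 0.0544 over its alternatives. The next gene in the genome, Il2ra, encodes the IL-2 receptor alpha chain of regulatory T cells. It read 5.42 (wild-type) and 4.83 (F/F) in normal colon and 5.36 and 5.33 in the tumours, and did not pass (0.22, SE 0.20, adjusted p = 0.473). Among cytotoxic lymphocyte genes, the granzyme Gzma fell (-2.46, SE 0.28, limma adjusted p = 0.0159). So did the NK receptor Klrd1 (-1.55, SE 0.19, limma adjusted p = 0.0174), each in both genotypes. Both genes were kept through the normal arrays alone, so that both tumour arrays had to be lower and their falls are descriptions. Summed over the 13 measured T and NK markers, the log2 level was 65.0 (wild-type) and 68.2 (F/F) in normal colon and 56.9 and 60.0 in the tumours. Of 10 colon epithelium markers 5 fell, where 8.23% of all genes fell. The brush border gene Vil1 was at -0.65 (SE 0.12, limma adjusted p = 0.0318), while Epcam did not pass (0.07, adjusted p = 0.647). The part of either cell type in the Il15 and Il15ra differences was not tested.

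**Figure D2:**
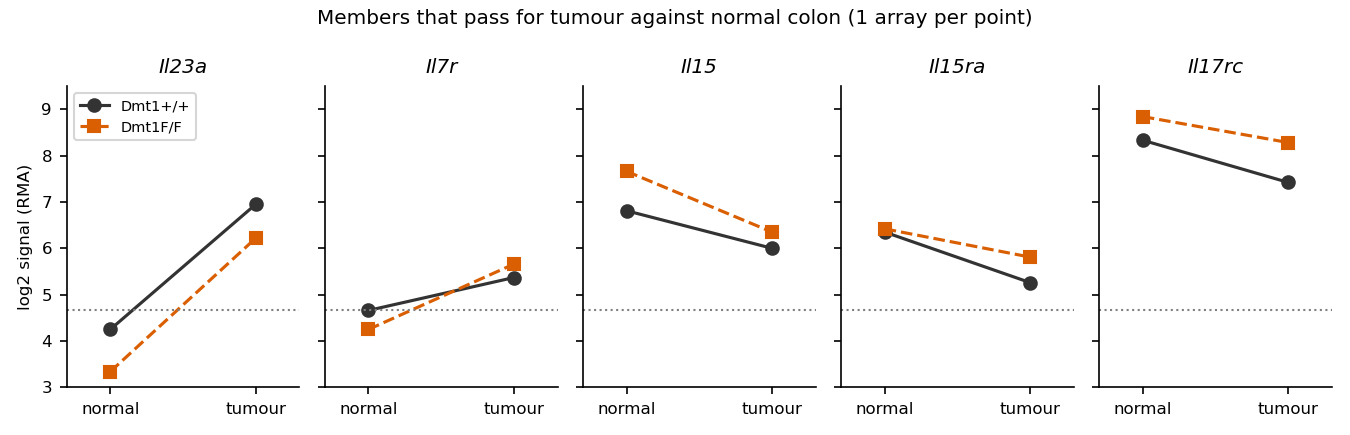
Log2 signal (y axis) in normal colon and tumour for the 5 genes that passed limma's test, solid lines for wild-type and dashed lines for F/F, 1 array per point; levels are not comparable between genes. The dotted line is the background level of log2 4.67. Il23a and Il7r are higher in both tumours, and Il15, Il15ra and Il17rc lower.

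Il17rc, which joins Il17ra to form the receptor for IL-17A and IL-17F, read 8.33 (wild-type) and 8.84 (F/F) in normal colon, and 7.42 and 8.28 in the tumours. Each tumour array was below its own normal array, and the F/F tumour was barely below wild-type normal colon. Il17rc fell, with a fitted difference of -0.74 (SE 0.14, limma adjusted p = 0.0334), -0.91 in wild-type and -0.57 in F/F mice. Without the variance trend its adjusted p was 0.0551, in a range from 0.00813 to 0.0551 over its alternatives. Il17re, the chain for IL-17C and the neighbour of Il17rc in the genome, was at 5.33 and 5.77 in normal colon and 4.69 and 5.45 in the tumours, in the order wild-type, F/F. It did not pass (-0.49, SE 0.17, adjusted p = 0.114). The shared chain Il17ra stayed between 5.90 and 6.10. Il17rd, which inhibits growth factor signalling, was at 4.45 and 4.74 in normal colon and 5.23 and 5.10 in the tumours and did not pass (0.57, SE 0.20, adjusted p = 0.119). The ligand Il17c, made by epithelium, reached 5.14 in wild-type tumour and lay between 4.55 and 4.66 elsewhere.

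The IL-10 family was measured through its receptors. Il22ra1, the epithelial receptor chain for IL-22, read 8.19 (wild-type) and 8.38 (F/F) in normal colon and 7.68 and 7.98 in the tumours, both below the normal arrays. It missed the threshold (-0.46, SE 0.11, adjusted p = 0.0588) and passed with each array centred on its median (adjusted p = 0.0331) and after cyclic loess (0.0431), in a range from 0.0331 to 0.0904 over its alternatives. Il10rb, the chain it shares with IL-10, was at 8.43 (wild-type) and 8.66 (F/F) in normal colon and 8.16 and 8.32 in the tumours (-0.31, adjusted p = 0.119). Il10ra, carried by leukocytes, was at 4.81 and 4.38 in normal colon and 4.81 and 5.14 in the tumours, so that the tumour difference was 0.00 in wild-type and 0.76 in F/F mice. Il20rb lay between 4.61 and 5.01.

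The receptors of IL-4 and IL-13 did not pass. Il4ra lay between 7.02 and 7.21 on the 4 arrays, with a fitted difference of 0.01 that was -0.05 to -0.08 under the other scalings, and Il13ra1 lay between 9.23 and 9.54. Of the IL-1 family symbols, Il1rl2, the receptor of IL-36, read 4.06 (wild-type) and 3.92 (F/F) in normal colon and 4.88 in both tumours. It was above background in the tumours alone and missed the threshold (0.89, SE 0.22, adjusted p = 0.0562), which it passed under 4 of 6 alternatives, over which adjusted p ran from 0.0359 to 0.0653. Il18bp, which neutralises IL-18, read 6.67 (wild-type) and 5.78 (F/F) in normal colon and 6.13 and 5.86 in the tumours. Il1rap lay between 5.11 and 5.38 and Il1f6 between 4.56 and 4.83. Il3ra lay between 4.49 and 4.96 and Il34, a ligand of the macrophage receptor Csf1r, at 4.28 to 4.30 on 3 arrays and 4.80 in F/F tumour.

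By fold between 2 arrays, 1 kept gene was 2-fold or more higher in wild-type tumour than in wild-type normal colon, against 6.56% of all genes, and 1 lower, against 5.31%. These were Il23a and Il15ra. In F/F mice 2 were higher, Il23a and Il7r (5.98% of all genes), and 1 lower, Il15 (3.81%). The 2 comparisons share no array. Of the 26, 17 (65.4%) differed in the same direction in both genotypes, against 78.2% of all kept genes.

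**Figure D3:**
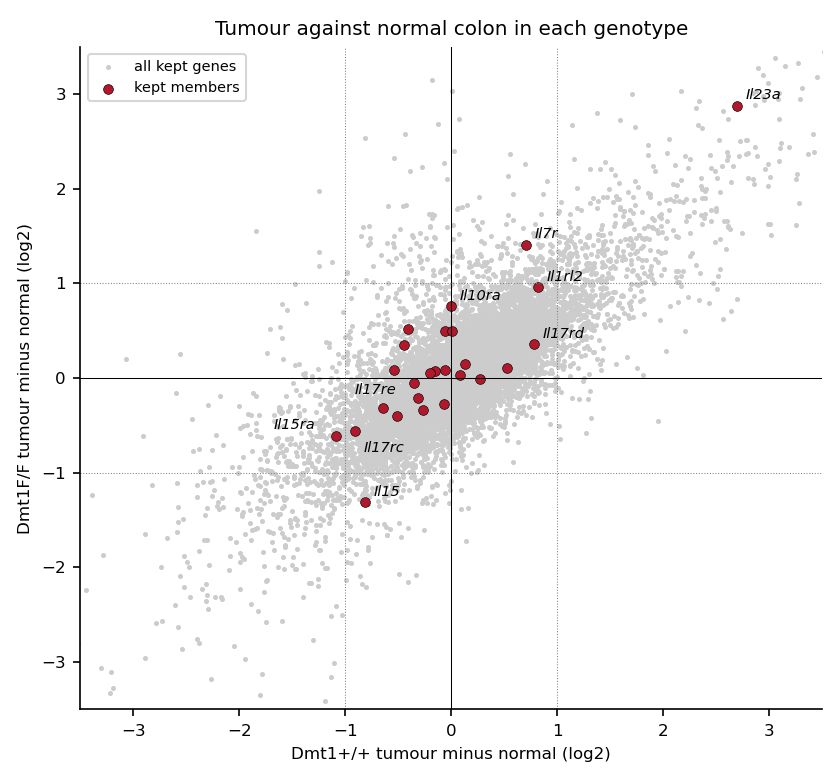
Log2 difference of tumour minus normal colon in wild-type (x axis) and F/F mice (y axis), 1 point per kept gene, grey for all genes and red for the 26 interleukin and receptor genes; dotted lines mark 2-fold, and 65 genes beyond 3.5 on an axis are not drawn. Il23a lies far out at the upper right with 2.70 and 2.88, and Il15 and Il15ra lie at the lower left.

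Between the genotypes, no kept gene differed 2-fold or more in either tissue, where 0.713% of all genes were higher and 0.904% lower in F/F normal colon, and 1.70% higher and 0.506% lower in F/F tumour. By limma none of the 26 and none of the 12060 genes passed for genotype over both tissues (0% in each direction), with or without the variance trend. At an unadjusted p under 0.05 in the fit with the trend stood 5 of the 26, Il23a, Il15, Il17rc, Il17re and Il18bp, and 991 of all genes (8.22%), and without the trend 935 of all genes.

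At 1.5-fold, F/F normal colon was higher for Il15 (7.66 against 6.81 in wild-type; 3.72% of all genes were higher) and lower for Il23a (3.34 against 4.25, both below background) and Il18bp (5.78 against 6.67; 4.00% were lower). In tumour, F/F was higher at 1.5-fold for Il17rc (8.28 against 7.42), Il17re (5.45 against 4.69) and Il21r, the IL-21 receptor of B and T cells (4.74 against 3.79; 5.36% of all genes were higher). Il21r was kept through the F/F tumour array alone, so that it had to be higher there. Its wild-type tumour value lay below background. F/F tumour was lower at 1.5-fold for Il23a (6.22 against 6.95), where 2.88% of all genes were lower. Il23a was lower on the F/F array in both tissues, with a fitted difference of -0.82 (SE 0.16, adjusted p = 0.523). Il17rc and Il17re were higher on the F/F array in both tissues, with fitted differences of 0.69 (SE 0.14, adjusted p = 0.523) and 0.60 (SE 0.17, adjusted p = 0.564). Il15 was also higher on both, by 0.85 in normal colon and 0.36 in tumour (fitted 0.61, SE 0.17, adjusted p = 0.564). None of these differences can be set against a spread between animals.

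**Figure D4:**
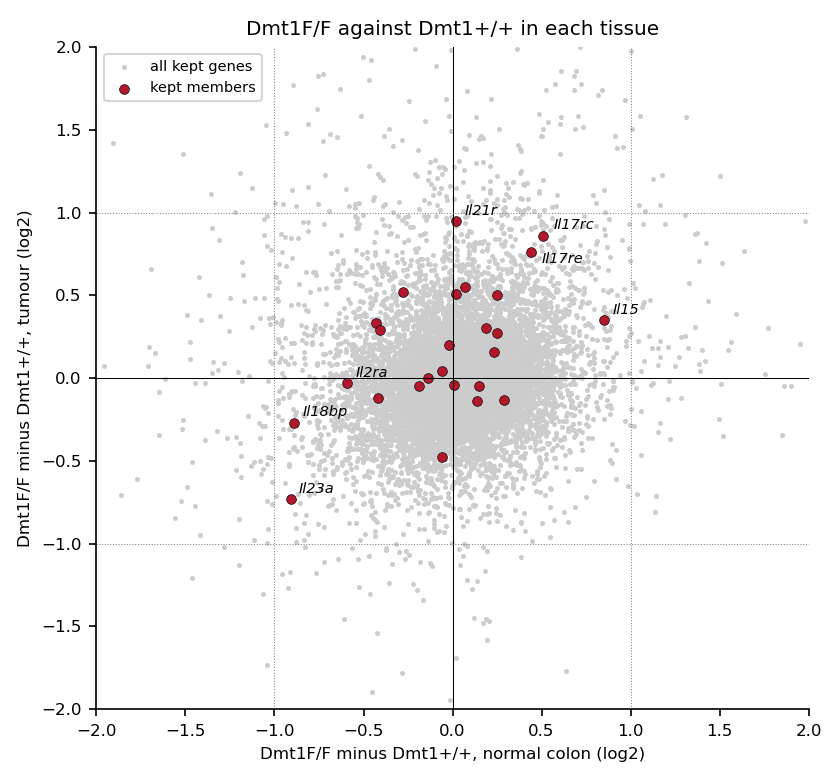
Log2 difference of F/F minus wild-type in normal colon (x axis) and tumour (y axis), 1 point per kept gene, grey for all genes and red for the 26 interleukin and receptor genes; dotted lines mark 2-fold, and 35 genes beyond 2 on an axis are not drawn. Every red point lies inside the 2-fold lines, with Il23a at the lower left (-0.91 and -0.72) and Il17rc at the upper right (0.51 and 0.86).

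B cell markers stood apart in F/F tumour. All 6 kept B cell markers were 2-fold or more higher in F/F tumour than in F/F normal colon, but Cr2 and Pax5 were kept through that array alone and had to be higher there. Ms4a1 was at 6.85 in F/F tumour and between 4.20 and 5.01 on the other arrays. The mean level of the 7 measured B cell markers was 6.14 in F/F tumour, 4.31 in wild-type tumour and 4.64 and 4.09 in wild-type and F/F normal colon. None of the 6 passed limma's test. Among the 26 interleukin and receptor genes, the called gene Il7r and Il1rl2 (4.88 in both tumours) had their highest value on that array. So did Il7, Il10ra, Il17ra, Il20rb, Il21r, Il27ra and Il34, of which Il21r and Il34 were kept through that array alone. How many of all kept genes had their highest value there was not counted, so nothing is read from these members as a group. The part of lymphocytes in the values of these members was not tested. Of the 8 kept neutrophil markers, 5 (S100a8, S100a9, Cxcr2, Csf3r and Mmp8) were kept through the wild-type tumour array alone, so that they had to be lower in F/F tumour. Of the other 3, Retnlg and Mmp9 differed by -1.30 and -1.08 between F/F and wild-type tumour and Ly6g by 0.83.

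Of the JAK, STAT and SOCS genes through which most of these receptors signal, 12 of 13 measured were kept, none rose and 1 fell, the feedback inhibitor Socs2 (-0.95, SE 0.20, adjusted p = 0.0414). In each genotype 6 were higher and 6 lower in tumour, with a median of -0.01. Among all genes tested, 11.0% rose and 8.23% fell. Stat2, a factor of interferon signalling, was lower in both genotypes (-0.77 in wild-type and -0.44 in F/F mice) and missed the threshold (adjusted p = 0.0511). Stat4, which acts downstream of IL-12, differed by 0.17 in wild-type and 0.82 in F/F mice and did not pass. Of the shared chains and partner ligands without an Il symbol, 6 of 12 were kept. Csf2rb2, the beta chain of the IL-3 receptor, rose (0.87, SE 0.14, adjusted p = 0.0272), reading 5.55 (wild-type) and 4.93 (F/F) in normal colon and 6.36 and 5.85 in the tumours. The other 5 did not pass, and Ifng (3.68 to 3.92), Tslp (3.42 to 3.68) and Csf2 (3.02 to 3.75) stayed near background. None of the 9 kept genes of IL-17 receptor signalling passed, among them the adaptor Traf3ip2, which encodes Act1, at 6.86 to 7.03.

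For the lists that follow, the shares over all genes tested were 11.0% rising and 8.23% falling. Genes that IL-17 and IL-22 are known to induce were divided. Of 13 kept, 4 rose and 3 fell: the lipocalin Lcn2 rose by 3.55 and the chemokines Cxcl5 and Cxcl1 by 3.19 and 1.81, with S100a8 at 1.80, whereas the lectins Reg3b (-3.16) and Reg3g (-2.65), which kill bacteria, and the fucosyltransferase Fut2 (-0.80) fell. Many other signals induce the same genes. Their median tumour difference was 1.81 in wild-type and 0.35 in F/F mice, against 0.08 and 0.04 over all genes, and Cxcl1, Cxcl2, S100a8 and S100a9 were kept through tumour arrays alone. Neutrophil markers, which share S100a8 and S100a9 with this list, had medians of 1.86 and 1.01 over 8 kept genes, all but Ly6g kept through tumour arrays alone, and Retnlg rose by 3.00. Their part in the list's values was not tested. Of 6 kept genes that IL-4 and IL-13 are known to induce, the lipoxygenase Alox15 rose (1.74, SE 0.18, adjusted p = 0.0132) and the goblet cell product Retnlb fell (-2.78, SE 0.62, adjusted p = 0.0474). Of 6 kept lymphocyte lineage factors, Ahr and Bcl6 rose, by 0.92 (SE 0.12, adjusted p = 0.0187) and 0.73 (SE 0.14, adjusted p = 0.036), and none fell, while Tbx21, Gata3, Eomes and Batf stayed near background. Of 7 mast cell genes 3 were kept and rose, Cpa3, Mcpt1 and Mcpt2, by 0.98, 0.86 and 1.13, of which Mcpt2 was kept through the wild-type tumour array alone. The other 4, Fcer1a, Ms4a2, Tpsb2 and Mcpt4, and the eosinophil markers Epx, Prg2, Siglecf and Ccr3 lay below background on every array. These lists were chosen with earlier results known, and nothing is read from them about which cytokine acted.

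**Figure D5:**
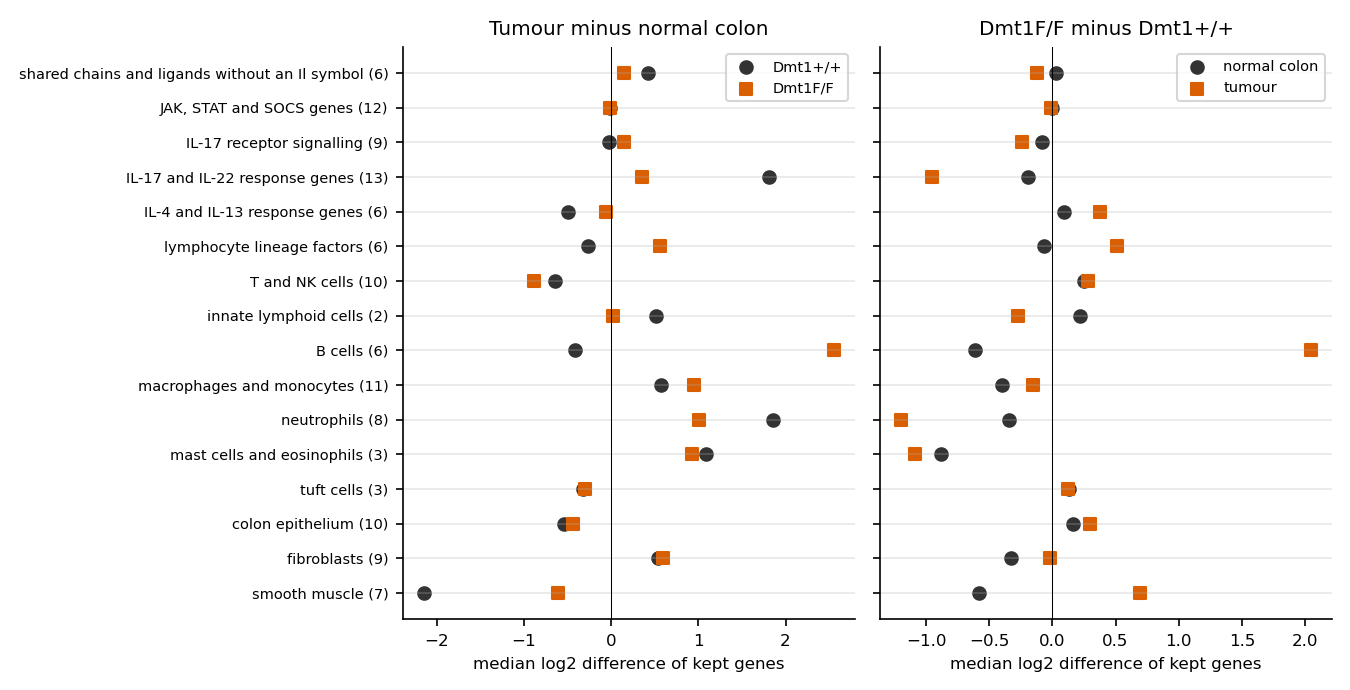
Median log2 difference (x axis) of the kept genes of each pathway and cell type list, tumour minus normal colon on the left (circles wild-type, squares F/F) and F/F minus wild-type on the right (circles normal colon, squares tumour), with the number of kept genes in brackets. The JAK, STAT and SOCS list lies at -0.01 in both genotypes on the left, and the B cell list stands at 2.56 in F/F mice and -0.41 in wild-type mice. Cr2 and Pax5 of the B cell list were kept through the F/F tumour array alone and had to be higher there.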

How the data were processed

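RNA from 4 groups, 1 array each, was measured on Affymetrix whole-transcript arrays from 400 ng of total RNA. The deposited values are log2 signals, 1 for each of 41345 probe sets, made by the authors with oligo and RMA (versions not given), as the submitters' processing notes list. Array medians were 4.30 (wild-type) and 4.27 (F/F) in normal colon and 4.34 in both tumours. RMA evens out total signal between arrays and makes no detection calls.

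Names of probe sets came from the platform annotation (23521 with 1 gene, 1814 with several, 16010 unnamed here), with symbols through RefSeq for 23328. Each gene was represented by its probe set of highest mean; only Il1rap among the members had several. Genes whose highest value reached the median of all genes' mean levels (log2 4.67) were kept, 12060 of 22180. limma 3.58.1 in R 4.3.3 fitted tissue and genotype additively, with a variance trend, 1 residual and 3.4 prior degrees of freedom, and Benjamini-Hochberg adjustment at 0.05. The residual is the tissue by genotype term, so the spread between animals is not measured. The fit was also run on simulated data drawn with its own estimated spread. Those data held no tissue by genotype term and no spread between animals, so the run cannot test these limits.

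All members are accounted for. Genes that passed or differed 2-fold, and their partners, are given on all arrays, and the others by range. The members, gene lists and tests were chosen with earlier results of these data known. Alternatives were other scalings, filters, folds, probe set means, no trend and another baseline. No coordinates of the files were used.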

Additional observations from a re-analysis of the deposited data

Results flagged for a closer look

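Among kept genes, 2 had tumour differences of opposite sign in the 2 genotypes, each larger than the median absolute genotype difference of all kept genes (log2 0.17). The difference between the genotypes was not tested. Il21r differed by -0.41 in wild-type and 0.53 in F/F mice, and only its F/F tumour value, 4.74, was above the background level. Il27ra, the receptor of IL-27, differed by -0.45 in wild-type and 0.35 in F/F mice, with values between 4.46 and 4.98 around that level.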

How the results depend on the processing

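Under the alternatives planned, Il23a and Il15 passed in every limma fit. The 5 calls became 3 without the variance trend, of which 2, Il23a and Il15, were among the 5 and the third was Il1rl2. At 1.5-fold instead of 2-fold the counts rose to 8 for wild-type tumour, 6 for F/F tumour, 3 between the normal arrays and 4 between the tumours. With no filter on level, 2 genes, Il22ra2 and Il1f9, were 2-fold apart between the tumours, both below background. Il27 turned from 0.06 to -0.08 after quantile normalization and -0.04 after cyclic loess, and Il4ra from 0.01 to -0.05 with each array centred on its median, -0.07 after quantile normalization and -0.08 after cyclic loess; neither passed in any fit. The other counts stayed within 1.5 times. Calls that rose over all genes were 1331 against 992 that fell, 1487 against 1528 with centred arrays, 1094 against 1210 after quantile normalization and 1063 against 1229 after cyclic loess. Against the wild-type normal array (chosen after seeing the data), F/F tumour had 2 genes higher and none lower. The cause of these changes was not tested. No paired analysis was possible because each group has 1 array and the labels give no replicate numbers. Leaving out an array leaves no residual degree of freedom. Signal near background limits 41 of the 67 genes.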
